A study of Drosophila melanogaster with 9 samples.

Results

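The introns described here are those of genes with a single listed intron. Of 60779 introns listed for OSCs, a Drosophila line derived from somatic ovarian cells with follicle cell character, 777 were chosen by 3 criteria. Their gene name occurs in exactly 1 row of the intron list, the intron is at most 2000 nt long, and the transcript had a mean above 10 RPKM (reads normalised to feature length and library size) in control cells. PolyA-selected RNA had been sequenced from OSCs grown at 27 °C and transfected with siRNAs against Acn (siAcn cells), against tsu (siTsu cells) or, as the control, against GFP (siGFP cells), with 2 replicates each, described by the study as biological duplicates. A knockdown lowers a transcript without removing it, and all cells were of 1 line.

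In splicing, an intron is removed and the exon junction complex (EJC) is left on the spliced RNA just upstream of the new junction. Tsu (Y14 in vertebrates) and its partner Mago belong to the EJC core, and Acn (Acinus) belongs to the ASAP complex, which joins the EJC through RnpS1. The EJC of 1 junction can aid the removal of a neighboring intron that is poorly defined. A transcript with a single intron carries no EJC from another junction while that intron is removed, so these introns address whether depletion of Tsu or Acn changes retention where no neighboring junction exists.

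Of 3220 names with a single row, 3092 had an intron of at most 2000 nt and 1126 of these had a gene value. The control transcript level then left 777, which made up 13.7% of the 5683 genes above 10 RPKM. Just inside the limit of 10 RPKM were CG34195 (10.0035 RPKM) and pie (10.0102 RPKM), and just outside CG13163 (9.98229 RPKM) and CG12659 (9.97038 RPKM). By length, KP78a and KP78b (1850 nt) were the last inside, and Cyt-c-p (2032 nt) and emc (2044 nt) the first outside. The 777 rows held 764 distinct intervals, since 26 rows share their interval with another of the 777, as KP78a does with KP78b.

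The label of a single-intron gene was checked against a later annotation of the same genome. A gene was found for 772 of 777 names, and each had an annotated intron of exactly the listed length. Of these genes, 767 had 1 annotated intron and 5 had 2 or 3. Inside 33 of the 772 introns lies an exon of another gene, on the same strand in 10 of them, and 79 of 777 overlap a listed intron of another name. Reads from such neighbors may count toward the intron: the libraries were strand-specific, but whether strand was used in counting is not stated.

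The introns of single-intron genes were short and mostly lay in coding sequence. Their median length was 64 nt (quartiles 59 and 90 nt, range 48 to 1850 nt), against 75 nt (quartiles 61 and 328 nt) for the 23983 other introns of at most 2 kb in genes above 10 RPKM. At most 70 nt long were 478 of 777 (61.5%), against 46.0% of the other introns. Of the 772 matched introns, 652 interrupt coding sequence, 105 the 5′ UTR and 15 the 3′ UTR. The median exon sequence was 273.5 nt upstream and 796 nt downstream, so the intron sat toward the 5′ end of the transcript. They were spread over chromosome arms 2L (157), 2R (142), 3L (159), 3R (188) and X (128), with 1 each on chromosome 4, 3RHet and XHet. The median transcript level in siGFP cells was 32.7 RPKM, and that of all genes above 10 RPKM was 32.9 RPKM.

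Among the functions represented, the share of single-intron genes ranged from 6.90% for translation factors (2 of 29) to 42.9% for the EJC core and ASAP. Of the 75 mitochondrial ribosomal protein genes above 10 RPKM, 30 (40%) had a single intron, against 7 of 86 cytosolic ribosomal protein genes (8.14%). Subunits of RNA polymerases, general transcription factors and Mediator had 14 of 60 (23.3%), and spliceosome and SR proteins 6 of 29 (20.7%). The EJC itself was represented by tsu, mago and Bin1, the last of which encodes the SAP18 subunit of ASAP, 3 of 7 genes listed. The lists were made by symbol with earlier results of these data known, and the shares are given as a description.

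Checks of the knockdowns and of the cells were made on transcript levels. Depth behind the intron values was inferred from the RPKM steps and not taken from reported read counts. It was lower in all knockdown libraries, with about 18700000 and 13400000 reads in siAcn libraries and 15900000 and 11500000 in siTsu libraries, against 28800000 and 30400000 in siGFP libraries. The siGFP values exceed the range of genome-mappable reads that the study states per sample. The Acn transcript was at 16.8 and 16.5 RPKM in siAcn cells, against 98.1 and 140 RPKM in siGFP cells (log2 fold change -2.74, limma adjusted p = 0.016). All 6 follicle cell and OSC markers were listed, from 32.5 RPKM for Fas3 to 612 RPKM for piwi over the 6 libraries. Of the markers of germline, hemocytes and fat body, nos, osk, NimC1, Lsp2, Yp1 and Fbp1 were not listed, vas, aub and Hml were at most at 1.41 RPKM in any library, and AGO3 and srp had means of at most 4.27 and 16.7 RPKM in any group.

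Depletion of tsu removed most of a transcript that itself has a single intron. The tsu transcript was at 9.77 and 9.16 RPKM in siTsu cells, against 128 and 112 RPKM in siGFP cells (log2 fold change -3.53). It was at 111 and 94.6 RPKM in siAcn cells, so the siTsu libraries lie below all 4 others (log2 change for siTsu against siAcn -3.31, limma adjusted p = 0.00095). The intron of tsu, 89 nt of coding sequence at chr2R:4998462-4998550 (plus strand, dm3), held 1 and 0 reads in siTsu libraries and 1 and 0 in siAcn libraries, against 5 and 4 in siGFP libraries, too few to read a change in its retention.

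Retention of each intron was expressed as the intron retention index, the RPKM of the intron as a percentage of the RPKM of its transcript in the same library. As most introns here hold few reads, the reads of all introns in a set were also summed and divided by the reads expected had every intron been covered like its transcript. For the 777 introns this pooled index was 1.37% and 1.45% in siAcn libraries, 1.26% and 1.29% in siTsu libraries, and 1.27% and 1.47% in siGFP libraries. Both siAcn values lay between the siGFP values, and the siTsu values lay around the lower of them. The means were 1.41% ± 0.057 (siAcn), 1.28% ± 0.024 (siTsu) and 1.37% ± 0.137 (siGFP; SD, n = 2 each), differences smaller than the spread between the siGFP replicates. These values include Syx1A, the intron with the most reads. Without it the pooled index was 0.924% and 0.928% in siAcn libraries and 0.905% and 0.936% in siTsu libraries, against 0.940% and 1.03% in siGFP libraries, so that both knockdowns lay below both siGFP libraries. With Syx1A included, an exact two-sided permutation test over libraries gave p = 1 for siAcn and p = 0.67 for siTsu against siGFP, where 2 libraries per group allow no p below 0.33.

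**Figure D1:**
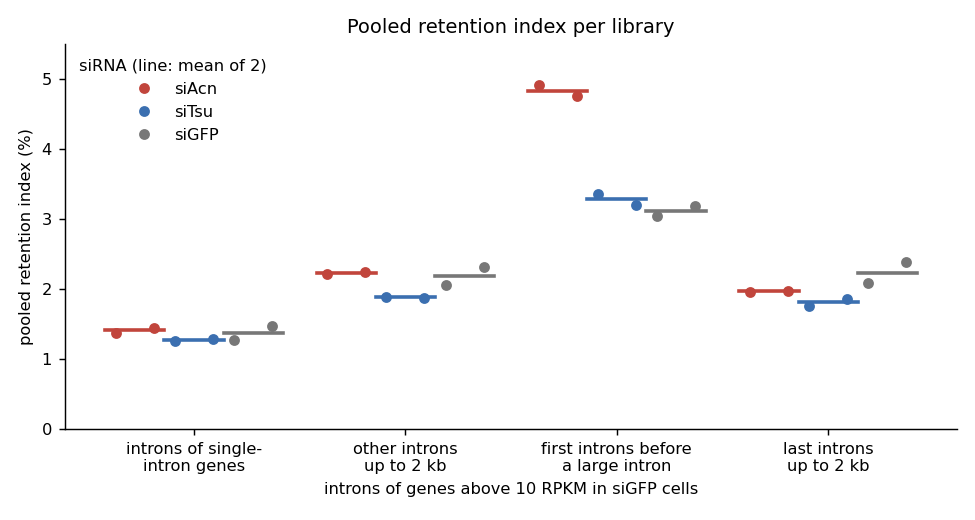
Pooled retention index (%) of 4 sets of introns in each library, with siAcn in red, siTsu in blue and siGFP in gray; points are libraries and lines the mean of 2. The introns of single-intron genes sit between 1.26% and 1.47% in all 6 libraries, whereas first introns before a large intron sit at 4.91% and 4.76% in siAcn libraries, against 3.04% and 3.18% in siGFP libraries.

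The same index is given for other sets of short introns. The study singled out first introns before a large intron by inspecting these same data, so their shift is not an independent yardstick. First introns of at most 2 kb that precede an intron over 2 kb (667 introns) had a pooled index of 4.91% and 4.76% in siAcn libraries and of 3.36% and 3.20% in siTsu libraries, against 3.04% and 3.18% in siGFP libraries. Last introns of at most 2 kb (4796 introns) had 1.96% and 1.98% in siAcn libraries and 1.76% and 1.86% in siTsu libraries, against 2.09% and 2.38% in siGFP libraries. The siAcn and siGFP libraries did not overlap in either of these sets, in opposite directions. They overlapped for single-intron genes, and likewise for the other introns of at most 2 kb, which had 2.21% and 2.25% in siAcn libraries and 1.89% and 1.87% in siTsu libraries, against 2.06% and 2.32% in siGFP libraries. These counts are of rows, and several first introns of 1 gene can overlap. With 1 first intron for each of 352 genes, its longest, a choice made after seeing the data, the pooled index was 4.51% and 4.62% in siAcn libraries and 3.15% and 3.13% in siTsu libraries, against 2.76% and 2.92% in siGFP libraries. Whether the sets differ from one another was not tested, since 2 libraries per group cannot reach a p under 0.05 in an exact test.

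Most introns of single-intron genes left few reads in polyA RNA. Over the 6 libraries 23621 reads fell into them, and Syx1A alone held 30.1% of these. The median intron had 4 reads, 439 of 777 had 1 to 10 reads, and 138 had none in any library. For those 138, a count of 0 allows an index of up to 0.692% at the median and 2.07% at most, for counting error only. No read was found for 53.7% and 63.6% of the 777 introns in siAcn libraries and 56.6% and 66.8% in siTsu libraries, against 43.4% and 42.0% in the deeper siGFP libraries. The share with an index above 10% does not follow depth in this way, and was 2.57% and 2.96% in siAcn libraries, 2.57% and 2.70% in siTsu libraries, and 2.70% and 2.83% in siGFP libraries. Among the other introns of at most 2 kb it was 5.23% and 5.52% in siGFP libraries.

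The pooled index was not the same at all lengths, but 1 intron weighs heavily on the class over 300 nt. In siGFP cells the pooled index of single-intron genes was 1.16% ± 0.072 for introns of at most 60 nt (n = 277), 0.849% ± 0.132 over 60 and up to 70 nt (n = 201), 0.776% ± 0.120 over 70 and up to 100 nt (n = 120), 0.739% ± 0.033 over 100 and up to 300 nt (n = 95) and 1.94% ± 0.204 over 300 nt (n = 84; SD over 2 libraries). The other introns of the same lengths had 0.820% ± 0.005, 0.533% ± 0.014, 0.809% ± 0.004, 1.31% ± 0.198 and 2.69% ± 0.192. Up to 70 nt both siGFP libraries were thus higher for single-intron genes, and over 100 nt both were lower. The difference between the sets was not tested. The listed interval reaches 35 nt into the exon on each side, which weighs most in the shortest introns. Sets, function lists and places of the intron differ in length, and their levels were not matched for it.

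**Figure D2:**
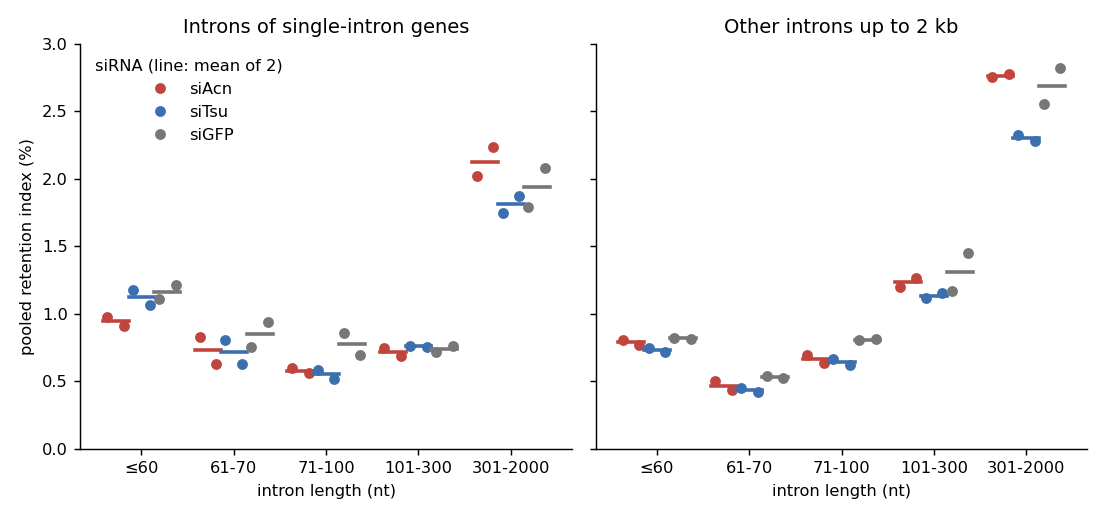
Pooled retention index (%) by intron length class (nt) for introns of single-intron genes (left) and the other introns of at most 2 kb (right); points are libraries, lines the mean of 2, siAcn red, siTsu blue and siGFP gray. In the class over 300 nt, single-intron genes had a mean of 2.13% in siAcn cells and 1.81% in siTsu cells, against 1.94% in siGFP cells. This class holds Syx1A, the intron with the most reads.

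No length class of single-intron genes had a knockdown mean above the siGFP mean by more than 1 SD of the siGFP libraries. For at most 60 nt the means were 0.945% ± 0.049 (siAcn) and 1.12% ± 0.080 (siTsu), against 1.16% ± 0.072 (siGFP), so the siAcn libraries were lower. Over 70 and up to 100 nt they were 0.579% ± 0.025 (siAcn) and 0.551% ± 0.043 (siTsu), against 0.776% ± 0.120 (siGFP), so both knockdowns were lower. Over 300 nt they were 2.13% ± 0.154 (siAcn) and 1.81% ± 0.087 (siTsu), against 1.94% ± 0.204 (siGFP; SD, n = 2 throughout). By place of the intron, coding introns had 1.66% ± 0.004 in siAcn cells and 1.46% ± 0.020 in siTsu cells, against 1.62% ± 0.157 in siGFP cells. Introns of the 5′ UTR had 0.995% ± 0.231 (siAcn) and 1.03% ± 0.134 (siTsu), against 0.897% ± 0.200 (siGFP), and the 15 introns of the 3′ UTR had 0.119% ± 0.001 (siAcn) and 0.139% ± 0.001 (siTsu), against 0.131% ± 0.008 (siGFP). In the 3′ UTR set both siTsu libraries, from 14 and 10 reads, were above both siGFP libraries.

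A few introns dominated these sums. Syx1A is the largest of them, and the values without it are given above. For the 676 introns that hold no exon and overlap no listed intron of another gene, the pooled index was 0.791% ± 0.060 in siAcn cells and 0.755% ± 0.038 in siTsu cells, against 0.888% ± 0.022 in siGFP cells (SD, n = 2 each). On this subset both knockdowns thus lay below the control. By transcript level, the index was 0.647% ± 0.006 in siGFP cells for the 93 genes above 100 RPKM and 3.02% ± 0.412 for the 369 genes of 10 to 30 RPKM, where the transcript level is also the denominator of the index.

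Syx1A, which encodes the plasma membrane syntaxin of vesicle fusion, had the most reads. Its intron (1525 nt in coding sequence, chr3R:19927769-19929293, minus strand, dm3) reached an index of 71.0% and 68.0% in siAcn libraries, 52.8% and 45.1% in siTsu libraries, and 77.9% and 60.8% in siGFP libraries. Both siTsu libraries were below all 4 others, whereas the siAcn libraries lay within the siGFP range. The log2 change of siTsu against siGFP was -0.50 (SE 0.21, adjusted p = 0.27), and a listed intron of 4EHP, which encodes a cap-binding protein, covers the whole Syx1A intron on the same strand and ends at the same 3′ splice site. Reads of the 2 genes cannot be told apart there.

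The intron of ver (verrocchio), which encodes a telomere capping protein, had the highest index in siAcn cells. This 356-nt intron of the 5′ UTR (chr3L:12517171-12517526, plus strand, dm3) had an index of 89.8% and 84.2% in siAcn libraries, 62.7% and 44.5% in siTsu libraries, and 56.7% and 75.7% in siGFP libraries, from 70 to 208 reads each. Both siAcn libraries were above all others, and the siTsu and siGFP libraries overlapped. The limma log2 change was 0.41 for siAcn (SE 0.25, adjusted p = 0.44), -0.31 for siTsu (adjusted p = 0.54) and -0.72 for siTsu against siAcn (adjusted p = 0.21). Its transcript was at 32.0 and 32.1 RPKM in siTsu cells, against 23.0 and 21.3 RPKM in siGFP cells.

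Below these 2 genes the index dropped steeply. Among introns with at least 20 reads in each siGFP library (35 of 777), the next highest was Usf, a basic helix-loop-helix transcription factor gene, with 16.2% and 19.5% (siAcn), 17.0% and 19.9% (siTsu) and 19.8% and 22.2% (siGFP). CG15439 followed with 16.7% and 21.8% (siAcn), 20.02% and 9.20% (siTsu) and 15.1% and 22.3% (siGFP). The small GTPase gene Rab39 had 15.2% and 9.62% (siAcn), 8.73% and 14.9% (siTsu) and 13.3% and 19.0% (siGFP). In all 3 genes the siTsu and siGFP libraries overlapped. CG18446, with an intron of only 62 nt, had 15.2% and 12.2% (siAcn), 15.4% and 13.2% (siTsu) and 12.7% and 17.5% (siGFP), so all 3 groups overlapped. The β-arrestin gene krz had 8.39% and 4.93% (siAcn), 8.45% and 9.98% (siTsu) and 6.78% and 11.1% (siGFP), again with overlap. Only CG18446, Syx1A, Usf and ver were above 10% in all 6 libraries, and 15 of 777 were above 10% in both siGFP libraries.

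**Figure D3:**
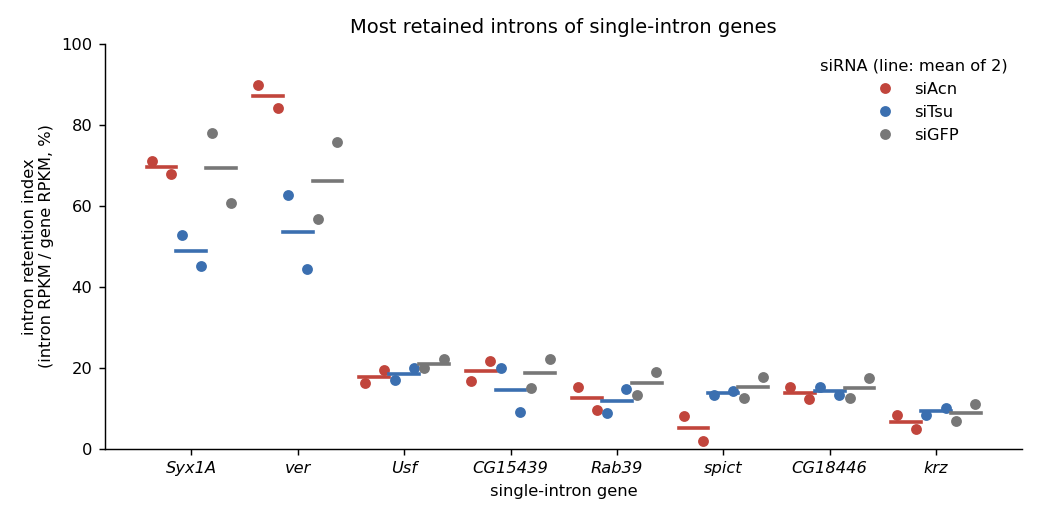
Intron retention index (%) of the 8 introns of single-intron genes with the highest mean in siGFP cells and at least 20 reads in each siGFP library; points are libraries, lines the mean of 2, siAcn red, siTsu blue and siGFP gray. Syx1A and ver reach at least 44.5% in every library, Usf at most 22.2%, and spict is at 8.19% and 2.05% in siAcn cells, against 12.5% and 17.8% in siGFP cells.

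The lowest ratio of siAcn to siGFP among the 8 introns plotted was that of spict (spichthyin), which encodes a membrane protein that limits BMP signaling at the neuromuscular junction. Its 498-nt coding intron (chr2L:12705093-12705590, plus strand, dm3) had an index of 8.19% and 2.05% in siAcn libraries, from 9 and 2 reads, 13.3% and 14.2% in siTsu libraries and 12.5% and 17.8% in siGFP libraries. Both siAcn libraries were below all others. The log2 change of siAcn against siGFP was -1.65 (SE 0.56). The Polycomb group gene phol, among the 56 introns tested for siAcn, was named after its value was seen. It had 3.37% and 4.57% in siAcn libraries, from 2 reads in each, against 11.3% and 15.3% in siGFP libraries (log2 change -1.62). Only introns with a high index in some library were tested, so the siGFP values of phol could admit it. The spict intron was plotted for its high siGFP index. Either choice favors a lower siAcn value, so both differences from siGFP cells are a description.

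None of these introns passed the test across introns. Of 2848 introns above 10% of the transcript in at least 1 library, 56 belong to single-intron genes, and none of the 56 passed an adjusted p under 0.05 in any comparison. Over all 2848 introns, 1.33% passed for siAcn and 2.77% for siTsu against siGFP, and 0.527% for siTsu against siAcn. At an unadjusted p under 0.05, none of the 56 was higher and 4 were lower for siAcn, 2 higher and 1 lower for siTsu, and 1 higher and 5 lower for siTsu against siAcn. These are 7.14%, 5.36% and 10.7% of the 56, where 17.0%, 18.9% and 17.5% of all 2848 introns had such a p. An intron that entered only through a siGFP value above 10% is more likely to be lower in the knockdowns. Without the 10% filter all 777 could be tested among 28666 introns, of which 0% passed in each of the 3 comparisons. The lowest adjusted p of the 777 was then 0.081 for siAcn, 0.067 for siTsu and 0.090 for siTsu against siAcn. In that fit, at an unadjusted p under 0.05, 12 values were higher and 46 lower for siAcn (7.46%, against 8.33% of all introns), and 15 higher and 58 lower for siTsu (9.40%, against 12.5%). Over all introns, 898 were higher and 1491 lower for siAcn, and 1488 higher and 2104 lower for siTsu. The knockdown libraries were less deep, with more introns lacking a read. The part of depth in this split was not tested.

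Changes were also read as ratios of the mean index, for introns with at least 20 reads in each of the 2 groups compared. For siAcn over siGFP, 38 of 777 introns met this, with a median fold of 0.930 (quartiles 0.779 and 1.21, range 0.572 to 1.54). None changed by 2-fold in either direction, while 5.58% of all introns so covered were at least 2-fold higher and 3.18% at least 2-fold lower. For siTsu over siGFP, 32 introns had a median fold of 0.969 (quartiles 0.725 and 1.31). Of these 32, 1 was at least 2-fold higher (background 6.75%) and 2 at least 2-fold lower (background 8.05%). With any read in both groups the median was 1.02 for siAcn (384 introns) and 1.01 for siTsu (367 introns), and with at least 100 reads 1.20 for siAcn (9 introns) and 1.01 for siTsu (8 introns). KP78a and KP78b, which share 1 interval, both count in these sets, and the median of 1.20 is the value of KP78b.

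**Figure D4:**
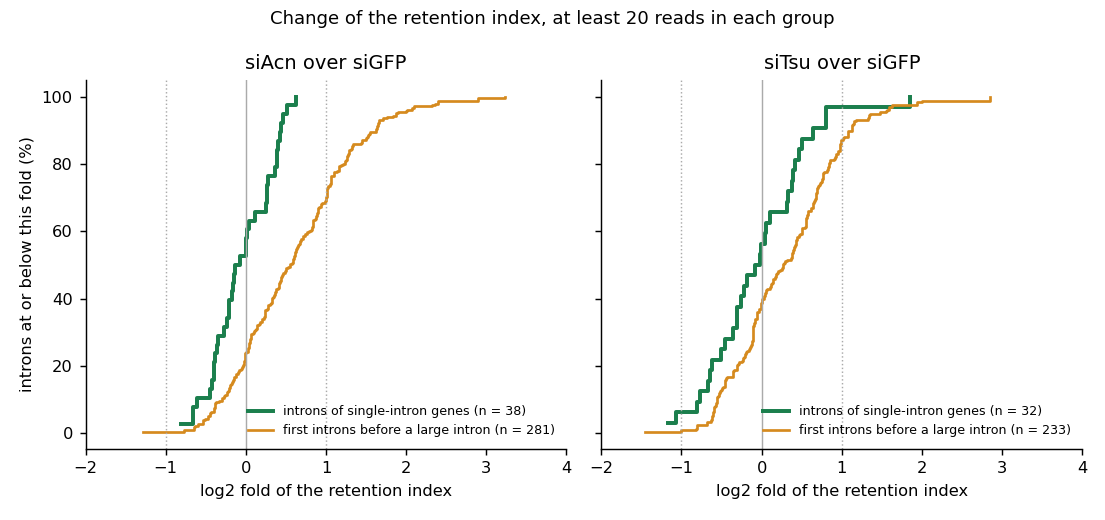
Cumulative share (%) of introns at or below a given log2 fold of the retention index, for siAcn (left) and siTsu (right) over siGFP, with at least 20 reads in each group; green, introns of single-intron genes, orange, first introns before a large intron, dotted lines, 2-fold. For siAcn the green curve, of 38 introns, ends below 2-fold, and 84 of 281 introns of the orange curve lie at or beyond it.

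First introns before a large intron, of which 281 rows of 140 genes were so covered, had a median fold of 1.46 for siAcn, and 84 (29.9%) were at least 2-fold higher. Because long introns collect more reads, both sets were also limited to more than 300 nt. There 31 introns of single-intron genes had a median of 1.001 for siAcn and none of 2-fold or more, and 261 first introns had a median of 1.51 and 79 (30.3%) of 2-fold or more. For siTsu the medians over 300 nt were 0.860 (25 introns of single-intron genes, none at least 2-fold higher) and 1.22 (216 first introns, 25 higher). With 1 first intron for each gene the median for siAcn was 1.36, and 34 of 138 (24.6%) were at least 2-fold higher. Over 300 nt it was 1.36 as well, with 33 of 131 (25.2%) at least 2-fold higher. For siTsu over 300 nt the median was then 1.17, with 11 of 110 higher. Each single-intron gene has 1 row, but KP78a and KP78b share 1 interval and its reads, and both were counted. All other introns of at most 2 kb had medians of 0.990 for siAcn and 0.935 for siTsu, with 7.23% and 7.89% at least 2-fold higher. Over 300 nt their medians were 0.990 and 0.925. Last introns of at most 2 kb had medians of 0.855 and 0.841. A median that did not rise was thus not particular to single-intron genes. The introns of a set are not replicates, and no test was made of the differences between sets.

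The intron that was at least 2-fold higher in siTsu cells belongs to RpLP1, an acidic protein of the ribosomal stalk. Its 145-nt coding intron (chr2L:420147-420291, plus strand, dm3) had an index of 0.423% and 0.484% in siTsu libraries and 0.192% and 0.060% in siAcn libraries, against 0.104% and 0.149% in siGFP libraries. The siTsu libraries, with 33 and 20 reads, were above all 4 others, a 3.59-fold higher mean. In the fit of all introns the log2 change was 1.82 (SE 0.59, limma adjusted p = 0.34). The index of RpLP1 thus stayed low, for a transcript that was at 2299 and 1673 RPKM in siTsu cells, against 2350 and 1551 RPKM in siGFP cells.

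Among introns with at least 50 reads over all libraries (52 of 777), Ranbp11, an importin gene, had the largest ratio of siTsu to siGFP after RpLP1. It had 2.49% and 4.12% in siTsu libraries and 1.01% and 1.60% in siAcn libraries, against 0.711% and 1.18% in siGFP libraries (3.50-fold for siTsu, adjusted p = 0.29). Exons of CG30082 and of an antisense RNA lie inside this 1302-nt intron on the opposite strand. KP78a and KP78b, a pair of protein kinase genes, share a 1850-nt intron of the 5′ UTR (chr3R:7176885-7178734, minus strand, dm3), so 1 set of reads serves both. KP78a had 10.2% and 17.0% in siTsu libraries and 6.61% and 12.2% in siAcn libraries, against 6.44% and 9.09% in siGFP libraries (log2 change for siTsu 0.72, SE 0.45, adjusted p = 0.42). CG41128, in heterochromatin of 3R, had 2.03% and 2.74% in siTsu libraries, against 1.26% and 1.81% in siGFP libraries, with 467 reads over all libraries. In these 3 loci both siTsu libraries were above both siGFP libraries, and no change passed the test.

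The lowest ratios of siTsu to siGFP came from genes of several functions. SmD3, a core protein of the spliceosomal snRNPs, had 0.119% and 0.049% in siTsu libraries and 0.325% and 0.380% in siAcn libraries, against 0.391% in both siGFP libraries. The siTsu values come from 3 and 1 reads (log2 change -1.94, SE 0.37, limma adjusted p = 0.15), and an antisense RNA has an exon in this intron. The oocyte patterning gene fs(1)K10 had 2.23% and 1.59% in siTsu libraries and 8.52% and 3.29% in siAcn libraries, against 6.62% and 7.66% in siGFP libraries (0.268-fold for siTsu, adjusted p = 0.30). Hsp83, which encodes the fly Hsp90, had 0.115% and 0.165% in siTsu libraries and 0.267% and 0.292% in siAcn libraries, against 0.248% and 0.380% in siGFP libraries (0.446-fold, adjusted p = 0.29). In these 3 genes both siTsu libraries were below both siGFP libraries and both siAcn libraries. l(1)G0320 had 0.433% and 0.346% in siTsu libraries, against 0.922% and 0.804% in siGFP libraries (0.452-fold, adjusted p = 0.37).

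Acn depletion gave smaller ratios. The largest means over siGFP were those of Rbcn-3B, a regulator of the vacuolar proton pump (1.54-fold), CG42456 (1.43-fold), Ranbp11 (1.38-fold), CG12025 (1.38-fold) and the E-cadherin gene shg (1.36-fold). Rbcn-3B had 3.11% and 7.09% in siAcn libraries, against 3.80% and 2.83% in siGFP libraries, so the groups overlapped, and a listed intron of mip130 overlaps it. The lowest after spict were Ipp, an inositol polyphosphate phosphatase gene (0.354-fold), the SUMO gene smt3 (0.506-fold), the actin gene Act42A (0.523-fold) and CG12034 (0.536-fold). Ranbp11, spict, Ipp, smt3, Act42A and CG12034 each fell short of 20 reads in siAcn or siGFP cells. Among introns with at least 20 reads in each group the lowest fold was 0.572. Act42A had 0.427% and 0.553% in siAcn libraries, against 0.751% and 1.12% in siGFP libraries, without overlap. The lowest adjusted p of these 9 genes was 0.70, for Act42A. The nucleoside diphosphate kinase gene awd, named for its read count after values were seen, had 4.82% and 5.43% in siAcn libraries and 5.22% and 5.92% in siTsu libraries, against 4.13% and 3.71% in siGFP libraries, with at least 102 reads each. Both knockdowns were above both siGFP libraries (log2 changes 0.38 and 0.50, SE 0.26, adjusted p = 0.80 and 0.52).

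The most abundant transcripts of single-intron genes were almost free of intron. Among those with the highest level in siGFP cells were the cytosolic ribosomal protein genes RpS28b, RpLP1, RpL38, RpS24 and RpS3, Sirup, which encodes an assembly factor of succinate dehydrogenase, and CG7194. RpS28b, whose 67-nt intron lies in the 3′ UTR, had 0.052% and 0.026% in siAcn libraries and 0.109% and 0.083% in siTsu libraries, against 0.031% and 0.070% in siGFP libraries. RpS3 had 0.603% and 0.475% in siAcn libraries and 0.251% and 0.276% in siTsu libraries, against 0.2996% and 0.599% in siGFP libraries. The siAcn and siGFP libraries overlapped in both genes, and the siTsu libraries were above both siGFP libraries for RpS28b and below them for RpS3. Sirup was higher, at 1.93% and 1.97% in siAcn libraries and 3.70% and 2.69% in siTsu libraries, against 2.18% and 2.96% in siGFP libraries.

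By function, the pooled index was low in all lists but one. Vesicle traffic genes had 30.1% and 32.3% in siAcn libraries and 22.2% and 21.9% in siTsu libraries, against 24.0% and 29.0% in siGFP libraries, a list that holds Syx1A. Another of its genes, Vps26, encoding a retromer subunit, had 2.10% and 3.44% in siAcn libraries and no read in siTsu libraries, against 3.65% and 1.86% in siGFP libraries from 8 and 5 reads (adjusted p = 0.076 for siTsu, limma without the 10% filter). The 30 mitochondrial ribosomal protein genes had 0.273% and 0.462% in siAcn libraries and 0.344% and 0.472% in siTsu libraries, against 0.637% and 0.691% in siGFP libraries. Both knockdowns were thus below both siGFP libraries in this list. Members such as mRpL12, mRpL30 and mRpS7 had at most 5 reads in any library.

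Spliceosome and SR protein genes, such as SmD3, SmD2 and SmB, had 0.323% and 0.338% in siAcn libraries and 0.183% and 0.137% in siTsu libraries, against 0.345% and 0.424% in siGFP libraries. Both siTsu libraries were below all 4 others. Cytosolic ribosomal protein genes had 0.234% and 0.186% in siAcn libraries and 0.155% and 0.195% in siTsu libraries, against 0.161% and 0.260% in siGFP libraries. The chaperone genes Hsp83, Tcp-1zeta and DnaJ-1 had 0.279% and 0.319% in siAcn libraries and 0.165% and 0.246% in siTsu libraries, against 0.293% and 0.408% in siGFP libraries. Proteasome genes (Prosbeta6, Rpt2, Rpn3 and 2 others) had at most 0.284% in any library, translation factor genes (Ef1beta and eIF-2alpha) at most 0.275%, the cytochrome oxidase genes levy and CoVIII at most 0.234%, and alphaTub84B with Act42A at most 0.523%. DnaJ-1, which encodes an Hsp40 protein, had no read in any library, which allows an index of up to 0.104%.

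The EJC genes had little retained intron. Together tsu, mago and Bin1 had 0.467% and 0.757% in siAcn libraries and 0.349% and 0% in siTsu libraries, against 0.832% and 0.493% in siGFP libraries, from few reads. The transcript of mago was at 55.7 and 51.1 RPKM in siAcn cells and 51.6 and 40.3 RPKM in siTsu cells, against 74.7 and 50.1 RPKM in siGFP cells. Bin1 was at 68.7 and 57.8 RPKM in siAcn cells and 70.2 and 57.6 RPKM in siTsu cells, against 84.0 and 66.3 RPKM in siGFP cells. For both genes each knockdown overlapped siGFP cells.

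Transcript levels of the 777 single-intron genes were tested in the same way among 7362 genes whose mean reached 1 RPKM. For siAcn against siGFP none of the 777 passed (at an unadjusted p under 0.05, 11 were higher and 22 lower, 4.25% of the 777 and 7.61% of all genes tested), where 0.0679% of all genes did. For siTsu against siGFP 4 were higher and 5 lower, 9 of 777 (1.16%), where 3.68% of all genes passed. The siGFP level had been used to choose these genes, so both counts against siGFP are a description. With each library centred on its median the split was 7 higher and 5 lower (1.54%). Of all genes, 3.49% then passed, with 113 higher and 144 lower. For siTsu against siAcn 1 passed, tsu itself, where 1.01% of all genes did. The median log2 change of the 777 was -0.08 for siAcn and -0.05 for siTsu against siGFP, beside -0.05 and -0.09 over all genes tested, and the siTsu median of the 777 was 0.04 after centring. The count of 9 depends on all 4 libraries compared. Without either siTsu library or either siGFP library only tsu remained, and without a filter on genes likewise. Over all genes the count of 271 then became 10 and 46 without a siGFP library, 24 and 6 without a siTsu library, and 217 of 8335 genes without the filter. Of the 6 follicle cell and OSC markers, piwi and zfh1 passed for siTsu. The piwi transcript fell to 160 RPKM in siTsu cells, against 530 RPKM in siGFP cells (adjusted p = 0.029), and zfh1 fell to 103 RPKM in siTsu cells, against 187 RPKM in siGFP cells (adjusted p = 0.047). The hemocyte and fat body marker srp rose to 16.7 RPKM in siTsu cells, against 8.61 RPKM in siGFP cells (adjusted p = 0.031). Their part in the changes was not tested.

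Besides tsu, 4 of the 9 transcripts were lower in siTsu cells. The rule required more than 10 RPKM in siGFP cells, and a gene low there could not enter, so these differences from siGFP cells are given as values with no test. ventrally-expressed-protein-D was at 3.71 and 1.79 RPKM in siTsu cells and 8.12 and 3.10 RPKM in siAcn cells, against 24.5 and 13.7 RPKM in siGFP cells (log2 change for siTsu -2.41). Its 59-nt intron of the 5′ UTR (chr2R:18296229-18296287, plus strand, dm3) was among the most retained in siGFP cells, with an index of 31.0% and 30.1% from 28 and 16 reads, and had only 2 and 0 reads in siTsu libraries. Both knockdowns were below both siGFP libraries at the transcript level. CG7406 was at 3.34 and 5.13 RPKM in siTsu cells and 5.08 and 4.24 RPKM in siAcn cells, against 20.6 and 11.4 RPKM in siGFP cells (log2 change -1.67 for siTsu and -1.54 for siAcn). The gene obst-H, for a chitin-binding protein, was at 4.90 and 6.92 RPKM in siTsu cells, against 15.4 and 13.2 RPKM in siGFP cells (log2 change -1.16), and CG34166 at 56.3 and 37.9 RPKM in siTsu cells, against 99.1 and 103 RPKM in siGFP cells (log2 change -1.11).

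**Figure D5:**
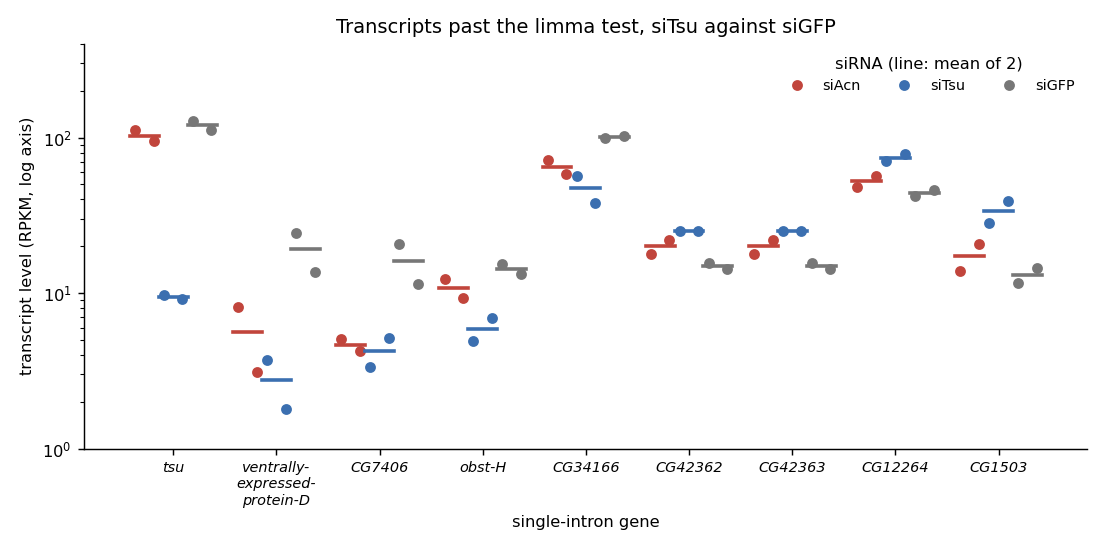
Transcript level (RPKM, log axis) of the 9 single-intron genes selected by limma for siTsu against siGFP, ordered by log2 change; points are libraries, lines the mean of 2, siAcn red, siTsu blue and siGFP gray. From tsu to CG34166 both siTsu libraries lie below both siGFP libraries, and from CG42362 to CG1503 above them.

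The 4 transcripts that were higher in siTsu cells come from 3 loci. CG42362 and CG42363 share an intron of 53 nt and carry identical values, 25.2 and 25.1 RPKM in siTsu cells, against 15.5 and 14.3 RPKM in siGFP cells (log2 change 0.72). CG12264, which encodes the cysteine desulfurase of iron-sulfur cluster assembly, was at 70.2 and 77.8 RPKM in siTsu cells, against 42.2 and 46.3 RPKM in siGFP cells (log2 change 0.73). Its intron had no read in any library, which allows an index of up to 0.376%. CG1503 was at 28.2 and 39.0 RPKM in siTsu cells, against 11.7 and 14.6 RPKM in siGFP cells (log2 change 1.28). In all of them the siAcn libraries lay between or overlapped, with CG1503 at 13.9 and 20.6 RPKM.

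The abundant transcripts of Sirup and CG7194 were not among the 9. Sirup was at 489 and 344 RPKM in siTsu cells and 1148 and 659 RPKM in siAcn cells, against 2588 and 840 RPKM in siGFP cells (log2 change for siTsu -1.84). The siTsu libraries were below all others, and the siGFP libraries lay far apart. CG7194 was at 856 and 571 RPKM in siTsu cells and 1173 and 892 RPKM in siAcn cells, against 1666 and 1239 RPKM in siGFP cells (log2 change for siTsu -1.04). Both had at most 3.70% of intron in any library.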

How the data were processed

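PolyA RNA of OSCs was sequenced in 6 libraries, 2 for each of 3 siRNAs. The authors aligned trimmed paired-end reads to the genome and to FlyBase transcripts and introns, and kept uniquely placed reads. Bowtie, GSNAP and the dm3 build are named, unversioned, in the notes of the submitters on processing. The deposited values are RPKM per gene and per intron, and each listed intron interval reaches 35 nt into both exons; 35 nt were taken off each end for lengths and coordinates. How reads were assigned within an interval is not given in the sources used here.

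Intron reads were recovered from the RPKM steps, since every intron value was a whole multiple of 1 step per library (within 0.1 read). Reads of a pair are not independent, and limits from counts cover counting error only. The index was tested on log2 values with limma (version 3.58.1, R 4.3.3, intensity trend, 3 groups of 2 in 1 fit, Benjamini-Hochberg adjusted p under 0.05) after adding 0.1 RPKM to both intron and transcript. Transcript levels were tested in the same way after adding 1 RPKM. Such fold changes understate those of low values. Only introns above 10% of their transcript in at least 1 library entered, and only genes whose mean reached 1 RPKM. Index values without that filter come from a fit of all introns of genes above 10 RPKM. Scripts were tested on simulated data. Alternatives changed the pseudocounts, filters, centring, samples and replicate block, and left out each library.

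The genes named with full values are those with the 5 largest rises and falls of the index per knockdown (at least 50 reads), the 8 highest indices (at least 20 reads in each siGFP library), the 8 highest transcripts, the transcripts past the test, up to 3 per function list, and tsu, Acn and piwi. A result that the rule would name is not reported here. Members and lists were chosen with earlier results of these data known. Annotation BDGP6.54 served for names, exons and place only. The 3 rRNA-depleted libraries and sequence features were not analysed here.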

Additional observations from a re-analysis of the deposited data

Results flagged for a closer look

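The tsu transcript differed between the knockdowns. It was at 9.77 and 9.16 RPKM in siTsu cells, against 111 and 94.6 RPKM in siAcn cells (log2 change -3.31, limma adjusted p = 0.00095), and tsu is the target of the siRNA used in siTsu cells.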

How the results depend on the processing

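No intron of a single-intron gene passed the limma test of the retention index under any alternative run. The count of 9 transcripts for siTsu against siGFP was 1 without a filter on genes and ranged from 1 to 11 when each library was left out in turn. For siTsu against siAcn the count of 1 did not change when a library was left out. Replicate numbers gave only 2 pairs and are not stated to mark a shared batch; deviations of same-numbered libraries correlated at 0.038 to 0.093 for the index and at 0.44 to 0.63 for transcripts. With the replicate block, 9 transcripts passed for siAcn and 121 for siTsu against siGFP, and 29 for siTsu against siAcn. These are 1.16%, 15.6% and 3.73% of the 777, where 4.03%, 25.3% and 9.02% of all genes passed. The median fold of the index for siAcn was 1.02 with no minimum of reads, 1.20 with at least 100 reads, 0.910 without introns that hold an exon of another gene, 0.896 without those overlapping a listed intron of another name, and 0.908 to 0.964 with a library left out. For siTsu it was 0.860 to 1.04 over all alternatives. Depth limits these values: only 38 and 32 of 777 introns had at least 20 reads in both groups compared for siAcn and siTsu.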

Other observations

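Some introns of single-intron genes hold another gene on the same strand, whose reads cannot be told apart from the intron. CG1142, whose intron holds the scaRNA MeU5-C46, had an index of 4.03% and 3.19% in siAcn libraries and 2.08% and 2.89% in siTsu libraries, against 5.89% and 5.11% in siGFP libraries. Both knockdowns were below both siGFP libraries. The intron of nop5, a snoRNP protein gene, holds a snoRNA and had 1.19% and 1.49% in siAcn libraries and 1.80% and 0.886% in siTsu libraries, against 2.67% and 1.03% in siGFP libraries, with overlap. CG34317, whose intron holds an exon of CG7950, had 2.06% and 2.32% in siAcn libraries and 3.97% and 6.48% in siTsu libraries, against 0.810% and 2.17% in siGFP libraries, from 20 reads in all. These genes were named after their values were seen.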
